A study of Mus musculus with 1989 samples.

Results

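Of the 1993 mouse thymocytes in the scRNA-seq library, 150 cells (7.53%) were taken as DP blasts in S phase, here called S phase blasts or members. DP cells are thymocytes that carry both coreceptors, CD4 and CD8, and DP blasts are the large dividing cells at the start of that stage. The members were chosen by their own expression values. The 160 cells with the highest mean of Eif5a, Mif, Ran, Npm1 and Ranbp1, here called biosynthetic cells, were first left out. Of the other cells, the 150 were taken whose mean of Rrm2, Pclaf and Hist1h2ap most exceeded their mean of Ube2c, Cenpa, Ccnb2 and Cenpf. The first 3 of these genes are typical of S phase and the last 4 of G2 and mitosis.

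The cells were total thymocytes from untreated mice of the inbred C57BL/6 strain, as the study's methods give it, and the labels give male animals aged 7 weeks. They were captured in droplets and form 1 library, and no animal is named for a cell. There are thus no replicates: no test between groups of cells was run, SDs are spreads over cells, and intervals for shares are exact binomial 95% intervals that cover counting error only. The deposited values are on a log2 scale after quantile normalization, with zeros kept at 0. Differences below are differences of mean log2 values, and a cell with a value over 0 for a gene counts as a cell in which the gene was found.

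A thymocyte that has rearranged its Tcrb locus and shows the pre-T cell receptor at its surface passes beta-selection and divides quickly while it turns on CD4 and CD8. It then leaves the cell cycle and rearranges Tcra with the recombinase of Rag1 and Rag2. Before S phase, the origin recognition complex, Cdc6 and Cdt1 load the Mcm2 to Mcm7 helicase on DNA. In S phase, polymerases held by the clamp Pcna copy the DNA, nucleotides are made by ribonucleotide reductase and thymidylate synthase, and new histones are delivered by chaperones. Many of the genes for these steps are known targets of E2F factors.

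All 150 members had Rrm2, Pclaf and Hist1h2ap above 0, as the rule favors. Hist1h2ap, which encodes a replication-dependent histone H2A, ranged from 2.15 to 7.14 among members, with a median of 6.14. Pclaf, which encodes a factor bound to PCNA, ranged from 2.55 to 5.04 with a median of 3.87. Rrm2, the regulated subunit of ribonucleotide reductase, ranged from 1.35 to 3.87 with a median of 2.80. Hist1h2ap thus varied most among the members. With each cell thinned to the same depth, Rrm2 was found in 84% of members and in 7.43% of mature single-positive cells, which should not divide. The G2/M genes were not absent from the members: 77 of the 150 had 3 or 4 of these 4 genes above 0, and 10 had none.

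The rule cuts a continuum. The difference of the 2 gene means, here called the rule score, ran from 4.76 in the first member to 2.82 in the last, with a median of 3.56. The members ranked 146 to 150 had scores of 2.85, 2.84, 2.84, 2.83 and 2.82, and the first 5 cells outside had 2.81, 2.81, 2.80, 2.80 and 2.79. At rank 200 the score was 2.38.

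**Figure D1:**
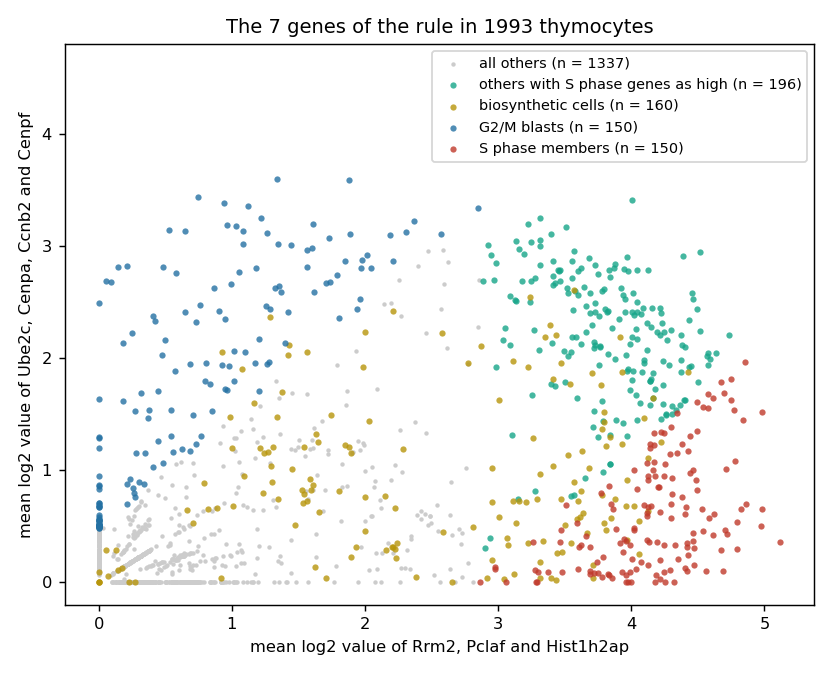
Mean deposited log2 value of Rrm2, Pclaf and Hist1h2ap (horizontal) against that of Ube2c, Cenpa, Ccnb2 and Cenpf (vertical), with 1 point per cell and the groups in colors. The 150 S phase blasts lie at the lower right, where the horizontal mean is 2.86 or more, next to 196 cells outside the members (turquoise) with a horizontal mean as high, whose vertical mean ranges from 0.31 to 3.41.

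Members were compared with 3 groups built from the same table. The G2/M blasts were the 150 cells with the lowest rule score. Postmitotic DP cells were 130 other cells with Cd4, Cd8a and Rag1 above 0 and Mki67, Top2a, Rrm2, Ube2c, Itm2a and Ccr7 at 0. The biosynthetic cells were the 160 cells left out first. Mature single-positive cells (148 cells with Ccr7 and without Mki67, Top2a and Rag1) served as a group that should lack genes of dividing cells. A group of 30 antigen-presenting cells was taken by the highest mean of their genes H2-Ab1, H2-Eb1, Cd74 and H2-Aa. Whether these 30 cells make a given thymocyte gene themselves was not tested, so a share in them is not a measure of background. The members were chosen on the contrast that these comparisons measure, so that their values are descriptions.

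The members had more detected genes than most cells. Their number ran from 1533 to 3513 with a median of 2361.5, and the median was 1484 over all cells, 1868.5 in G2/M blasts, 3370.5 in biosynthetic cells and 1213.5 in postmitotic DP cells. In place of counts, which were not used here, a value was ranked among the distinct values of its cell, and these ranks are called steps. The medians were 5272.5 steps in members, 3847.5 in G2/M blasts, 9696.5 in biosynthetic cells, 1899.5 in postmitotic DP cells, 2113.5 in mature single-positive cells and 2842.5 in the antigen-presenting cells. Shares after thinning refer to cells thinned at random to 1300 steps. The lowest value that a cell can show falls with its depth (r = -0.934 across the cells of the library, a description), so differences of genes with low values also reflect depth.

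Markers of antigen-presenting and of mature single-positive cells were scarce in the members. Summed steps of the 13 measured antigen-presenting cell markers ran from 0 to 5 in members with a median of 1, against 17 to 113 with a median of 46.5 in the antigen-presenting cells, and Xcr1 and Siglech were at 0 in every member. The 10 markers of mature single-positive cells summed to 0 to 7 steps in members with a median of 0. In mature single-positive cells they summed to 0 to 12 with a median of 3, so the ranges overlap. After thinning, 3 or more of these markers were found in 2 members and 60 mature single-positive cells. The 8 measured DN cell markers summed to 0 to 5 steps in members with a mean of 0.613. The means were 1.03 in mature single-positive cells and 0.773 in G2/M blasts. They were lower than in members in postmitotic DP cells (0.377), biosynthetic cells (0.313) and antigen-presenting cells (0.3). No group of DN cells was defined, so these sums do not show whether DN cells were among the members. Il2ra, the IL-2 receptor alpha chain of DN cells, was above 0 in 5 members (3.33%), and after thinning it was found in none of the 150. A count of 0, taken to allow up to 3 cells, limits only the share with a detection at that depth, here to 2%. The 11 innate-like lymphocyte markers summed to 0 to 4 steps in members, the 2 red cell markers to 0 or 1, and the 6 thymic epithelial and stromal markers to 0 to 2.

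Pcna, Dek, Slbp and Dut had the largest differences among the genes that were higher in members than in G2/M blasts. Of 4395 genes tested, which were above 0 in at least 20% of the cells of either group and not used by the rule, 149 (3.39%) were at least 0.5 higher in members and 30 (0.683%) at least 0.5 lower. The balance depends on depth and on the scale. On the thinned scale, where 0.5 is a stricter threshold, 25 were higher and 15 lower. Among cells with 1500 to 3000 detected genes, 113 were higher and 59 lower. A gene with a mean below 0.5 in G2/M blasts cannot be called lower. Pcna, the sliding clamp of the replication fork, ran from 0.00 to 3.87 in members with a median of 2.70, and from 0.00 to 2.24 with a median of 0.00 in G2/M blasts. The ranges overlap, but Pcna was above 0 in 99.3% of members and 38% of G2/M blasts. The mean of Pcna was 2.60 ± 0.69 (SD over 150 cells) in members and 0.33 ± 0.55 in G2/M blasts, a difference of 2.27, the largest of all genes tested in this comparison. After thinning, Pcna was found in 83.3% of members (76.4% to 88.9%), 16% of G2/M blasts (10.5% to 22.9%) and 16.9% of mature single-positive cells.

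Lig1, the ligase that joins Okazaki fragments, had a mean of 1.47 ± 0.77 in members against 0.20 ± 0.43 in G2/M blasts, a difference of 1.27. Rfc1, a subunit of the clamp loader, had 0.86 ± 0.71 against 0.11 ± 0.28, and Prim1, the primase subunit, 0.58 ± 0.59 against 0.07 ± 0.19. These 4 genes, with Pcna, were the ones past 0.5 among the 25 tested genes of fork polymerases, clamp and ligase. None was lower by 0.5. The median difference of the list was 0.26, against 0.01 over all genes tested.

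Licensing genes were also higher in members. Of 21 tested genes of origin licensing and helicase, 6 were at least 0.5 higher and none lower, with a median difference of 0.30. The 6 were Gmnn, the inhibitor of Cdt1 that prevents a second licensing, Orc6 of the origin recognition complex, and the helicase subunits Mcm3, Mcm5, Mcm6 and Mcm7. Gmnn had a mean of 1.45 ± 0.68 in members and 0.32 ± 0.53 in G2/M blasts. Mcm6 ran from 0.00 to 3.04 in members with a median of 0.90, and its mean of 0.88 ± 0.72 compares with 0.15 ± 0.37 in G2/M blasts. After thinning, Mcm6 was found in 33.3% of members (25.9% to 41.5%), 11.3% of G2/M blasts (6.7% to 17.5%) and 6.08% of mature single-positive cells. Single loaders were sparse. Cdc6 had a mean of 0.19 ± 0.37 and Cdt1 of 0.39 ± 0.52 in members, whereas at least 1 of Mcm2 to Mcm7 was found in 149 of the 150 before thinning and in 85.3% after it.

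Nucleotide synthesis showed the same direction. Of 23 tested genes of nucleotide supply, 7 were at least 0.5 higher in members and none lower, with a median difference of 0.22. Dut, which removes dUTP and keeps uracil out of DNA, ran from 1.33 to 3.95 in members with a median of 3.03, so that no member lacked it, and from 0.00 to 3.29 with a median of 0.80 in G2/M blasts. The difference of its means was 1.98. Tyms, thymidylate synthase, had a median of 1.94 in members and 0.00 in G2/M blasts, with means of 1.81 ± 0.70 and 0.13 ± 0.35. The other genes past 0.5 included Dtymk and Tk1, the kinases of thymidylate and thymidine, Dctpp1, which breaks down modified dCTP, and Rrm1. Rrm1, the large subunit of ribonucleotide reductase, had a mean of 0.72 ± 0.65 in members and 0.16 ± 0.36 in G2/M blasts.

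**Figure D2:**
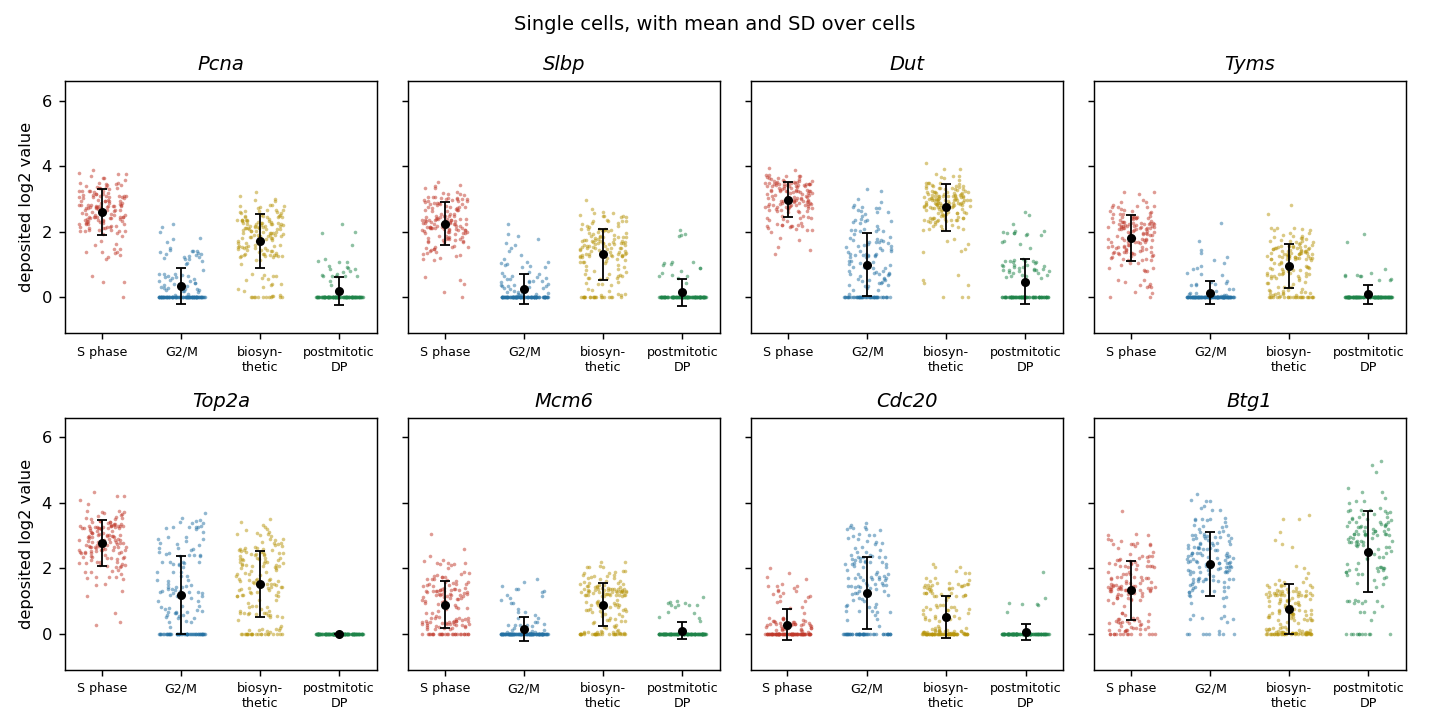
Deposited log2 values of 8 genes in single cells (points) of the S phase blasts (n = 150), G2/M blasts (n = 150), biosynthetic cells (n = 160) and postmitotic DP cells (n = 130), with mean and SD over cells in black. Pcna, Slbp, Dut and Tyms are highest in S phase blasts, where their means are 2.60, 2.25, 2.98 and 1.81, Cdc20 is highest in G2/M blasts (1.25) and Btg1 in postmitotic DP cells (2.51). Top2a is 0 in postmitotic DP cells by the definition of that group.

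Chromatin assembly and maintenance was the list with the most genes past 0.5. Of its 24 genes, which were all tested, 12 were at least 0.5 higher in S phase blasts than in G2/M blasts and none lower. The median difference was 0.45, and 0.22 on the thinned scale. All 24 differences were above 0, against 2417 of the 4395 genes tested (55.0%). Nap1l1, a histone chaperone, had a mean of 2.14 ± 0.67 in members and 0.88 ± 0.85 in G2/M blasts. Anp32b, an acidic chaperone, had 3.06 ± 0.46 and 1.84 ± 1.05. Uhrf1 and Dnmt1, which carry DNA methylation through replication, had differences of 0.82 and 0.62, and Asf1b, the H3-H4 chaperone, 0.97 ± 0.74 in members against 0.10 ± 0.27. Dek, an abundant chromatin protein outside the list, was at 1.19 or more in every member, with a median of 2.95 against 0.47 in G2/M blasts and a difference of 2.06.

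Slbp binds the stem-loop that ends replication-dependent histone mRNAs and is needed to make and translate them. Its value ran from 0.00 to 3.52 in members with a median of 2.27, and from 0.00 to 2.22 with a median of 0.00 in G2/M blasts. The difference of means was 2.00, and after thinning Slbp was found in 75.3% of members (67.6% to 82%), 14.7% of G2/M blasts (9.4% to 21.4%) and 12.2% of mature single-positive cells. Beside Hist1h2ap, 2 of 24 tested replication-dependent histone genes were past 0.5: Hist1h2ae (1.18 ± 0.90 against 0.15 ± 0.42) and the linker histone Hist1h1b (0.85 ± 0.78 against 0.06 ± 0.25). Most mRNAs of this kind have no poly(A) tail and the library was primed on poly(A), so these values do not give their full level, and reads of near-identical histone copies may be assigned to the wrong copy. Among 8 tested variant histones, H2afz, H2afx and H3f3b were past 0.5. H2afz was at 3.91 or more in every member, with a mean of 4.88 ± 0.39 against 3.69 ± 1.26.

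Among checkpoint genes, Tipin, which with its partner Timeless stabilizes stalled forks, had a mean of 1.74 ± 0.68 in members against 0.33 ± 0.53 in G2/M blasts, and Clspn, the adaptor that lets ATR activate CHK1, 0.79 ± 0.68 against 0.06 ± 0.20. They were 2 of the 9 tested genes of checkpoint and fork protection, whose median difference was 0.15. Of 20 cohesin and condensin genes, Esco2, Smc2, Smc3 and Ncapg2 were past 0.5. Esco2, which acetylates cohesin in S phase, was found after thinning in 32% of members (24.6% to 40.1%) and 2.67% of G2/M blasts (0.731% to 6.69%). Smc6, of the complex that resolves joined DNA, was the only one of 23 repair genes past 0.5 (1.26 ± 0.68 against 0.27 ± 0.51).

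Cyclins of the successive phases differed between the groups. After thinning, the G1/S cyclins Ccne1 or Ccne2 were found in 31.3% of members (24% to 39.4%) and in 2.67% of G2/M blasts (0.731% to 6.69%). Ccna2, the cyclin of S and G2, had a mean of 1.20 ± 0.80 in members and 0.62 ± 0.79 in G2/M blasts. Ccnb1 or Cdc20, a mitotic cyclin and an activator of the anaphase-promoting complex, were found after thinning in 21.3% of members (15.1% to 28.8%) and 56% of G2/M blasts (47.7% to 64.1%). Ccnd3, the D cyclin of early DP cells, was high in both, 2.79 ± 0.69 and 2.45 ± 1.01, and Ccnd2 was low in both, 0.08 ± 0.32 and 0.23 ± 0.63. Fbxo5, the inhibitor of the anaphase-promoting complex, had 1.35 ± 0.75 in members against 0.12 ± 0.32. Of the E2F genes, E2f1 had a mean of 0.27 ± 0.45 in members and 0.05 ± 0.20 in G2/M blasts, and the repressor E2f8 0.50 ± 0.59 and 0.01 ± 0.04.

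Mitotic genes differed in both directions. Of 69 tested genes of mitosis and kinetochore, 7 were at least 0.5 higher in members, 4 were at least 0.5 lower, and the median difference was 0.03. The 7 were Top2a, Spc24, Pbk, Nusap1, Hmgb2, Spc25 and Mki67, of which Top2a, topoisomerase II alpha, ran from 0.27 to 4.32 in members with a median of 2.85, against 0.00 to 3.69 with a median of 0.85 in G2/M blasts. The 4 were Cdc20, Ccnb1, Knstrn and Arl6ip1. Cdc20 had a mean of 0.27 ± 0.47 in members against 1.25 ± 1.09, a difference of -0.98, and Knstrn, of the spindle, 0.13 ± 0.30 against 0.74 ± 0.78. The G2/M blasts were a mixed group. Only 111 of them had 3 or 4 of Ube2c, Cenpa, Ccnb2 and Cenpf above 0, and the other 39 had a median of 1146 detected genes and little Top2a (0.13 ± 0.30). Against the 111 cells alone, a comparison added after the data were seen, 4 of the 69 genes were at least 0.5 higher in members and 7 at least 0.5 lower, and the median difference was -0.06. Hmgb2 changed direction, with 5.05 ± 1.04 in the 111 cells against 4.86 ± 0.50 in members, and the differences of Nusap1 and Mki67 were 0.48 and 0.30. Top2a (1.55 ± 1.15 in the 111 cells) stayed higher in members by over 0.5 and Cdc20 (1.64 ± 0.98) stayed lower. In the other lists, Mcm3, Prim1, Ccna2 and Smc2 were no longer past 0.5 against the 111 cells, and Cks1b, Dntt, Cd8a, Ly6d, Rmnd5a and Endou became at least 0.5 lower in members. The nucleotide supply list kept 7 genes past 0.5, but its median difference fell to 0.13. H2afz and H2afx stayed higher in members, by 0.70 and 0.54, against 1.19 and 0.86 with all 150 G2/M blasts.

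The genes that were lower in members than in G2/M blasts included quiescence and thymocyte genes. Ccr9, a chemokine receptor of DP cells, differed by -1.05, and Cd27, a costimulatory receptor, by -0.88. The actin-binding thymosin Tmsb4x had a mean of 3.98 ± 0.54 in members and 4.99 ± 0.80 in G2/M blasts, and Tmsb10 differed by -0.86. Btg1, Btg2 and Pdcd4, which restrain growth or division, differed by -0.82, -0.85 and -0.84. Btg1 was not absent from members: it ran from 0.00 to 3.76 with a median of 1.38, against a median of 2.19 in G2/M blasts. Among 11 tested CDK inhibitor and quiescence genes these were the 3 lower ones. Cdkn2c, which encodes the CDK4/6 inhibitor p18, was the exception at 1.17 ± 0.80 in members and 0.37 ± 0.66 in G2/M blasts. Malat1, a nuclear RNA, differed by -0.89 and Dynll1, a dynein light chain, by -0.92. Ptma, Tuba1b and Hsp90aa1, a chromatin protein, a tubulin and a chaperone of growing cells, were higher in members by 1.26, 1.70 and 1.20.

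**Figure D3:**
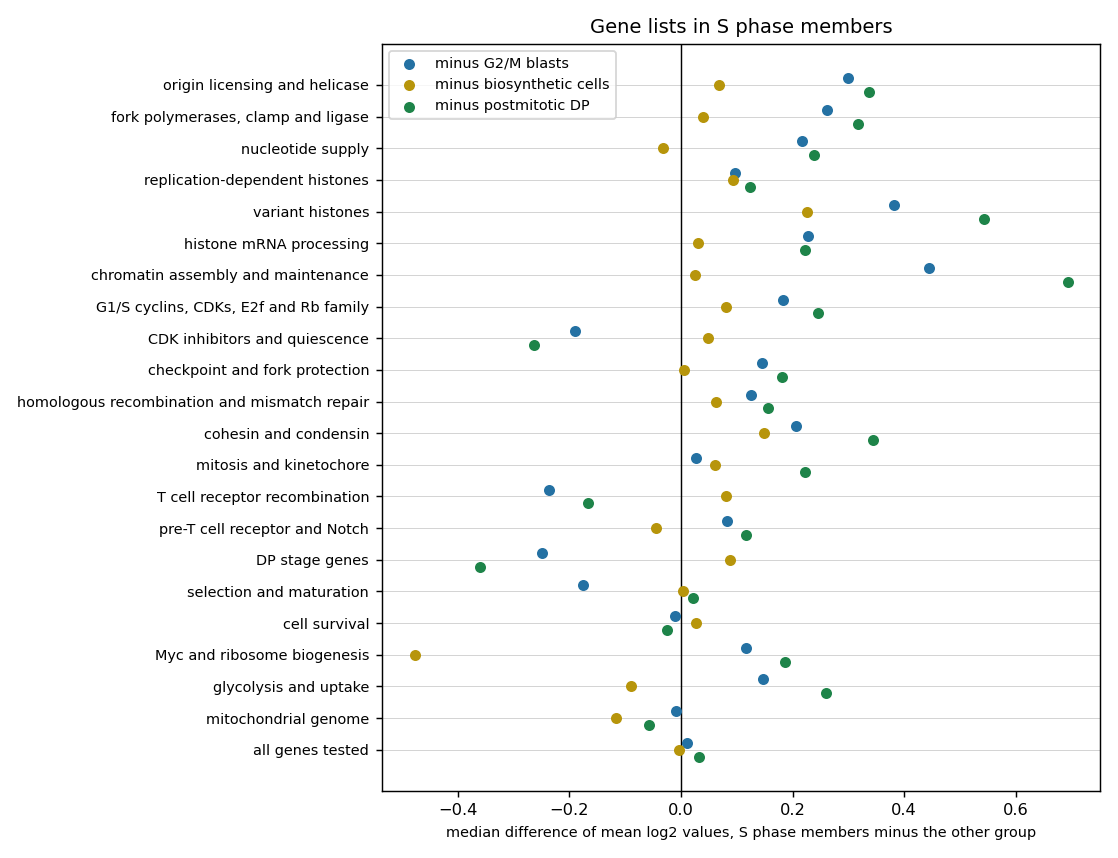
Median over the tested genes of each list of the difference of mean deposited log2 values, S phase blasts minus G2/M blasts (blue), minus biosynthetic cells (yellow) or minus postmitotic DP cells (green). Chromatin assembly has the highest medians against G2/M blasts (0.45) and postmitotic DP cells (0.69), Myc and ribosome biogenesis the lowest against biosynthetic cells (-0.48), and the medians over all genes tested are near 0.

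Sequence upstream of these genes was searched for 3 kinds of motif, because E2F targets carry a known motif: the E2F letters TTTCGCGC or TTTGGCGC, the NF-Y letters CCAAT, and the CHR letters TTTGAA or TTCGAA of cell cycle genes active in G2/M. Both strands of the 250 bases before RefSeq start sites were searched (GRCm38.p6), and matches on opposite strands may overlap. Some RefSeq promoters were left out before the search. Of the 149 genes that were at least 0.5 higher in members than in G2/M blasts, 125 had a promoter in the set searched. Among these 125, 9 (7.2%) held the E2F letters, against 87 of the 3479 tested genes with a promoter (2.5%). Of the 26 genes at least 0.5 lower, 0 held them. The 9 were Uhrf1, Mcm6, Mrpl18, Mcm5, Tfdp1, Cbx3, Dnmt1, Cox8a and Cox5a. In the licensing list, which had the highest share of the lists searched, 4 of 20 promoters (20%) held the E2F letters. In the nucleotide supply list 0 of 28 held them, and in the mitosis list 4 of 62 (6.45%). CCAAT was in 58.4% of the promoters of genes higher in members, 61.5% of those lower and 41.9% of all tested. CHR letters were in 16.8%, 11.5% and 15.9% of the same sets, and in 38.7% of the promoters of the mitosis list. A match is a description of the letters, not a binding site. No promoter of a replication-dependent histone gene was in the set.

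Windows of 120 bases are shown for 3 genes that were higher in members and hold E2F letters, for 2 higher genes without them, and for Cdc20, which was lower. They are written 5′ to 3′ on the strand of the gene in lower case, and capitals mark any of the 3 kinds of motif.
Mcm6: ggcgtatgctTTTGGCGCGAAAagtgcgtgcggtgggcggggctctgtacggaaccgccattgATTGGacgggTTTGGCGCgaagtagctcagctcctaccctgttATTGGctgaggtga
Mcm5: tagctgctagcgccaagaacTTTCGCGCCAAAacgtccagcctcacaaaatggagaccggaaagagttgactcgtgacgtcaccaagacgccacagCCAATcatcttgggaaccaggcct
Uhrf1: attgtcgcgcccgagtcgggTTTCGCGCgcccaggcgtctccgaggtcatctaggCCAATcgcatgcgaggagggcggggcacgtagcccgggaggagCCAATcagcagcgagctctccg
Slbp: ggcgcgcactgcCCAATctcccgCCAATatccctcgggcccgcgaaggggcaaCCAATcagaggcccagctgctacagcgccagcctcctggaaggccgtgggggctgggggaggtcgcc
Top2a: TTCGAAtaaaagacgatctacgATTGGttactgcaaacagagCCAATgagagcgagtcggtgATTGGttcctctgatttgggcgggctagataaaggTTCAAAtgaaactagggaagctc
Cdc20: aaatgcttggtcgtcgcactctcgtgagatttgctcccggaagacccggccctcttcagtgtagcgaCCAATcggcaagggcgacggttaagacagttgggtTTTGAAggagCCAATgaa

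The Mcm6 window (chr1:128359706-128359825, minus strand) ends at the start site and holds 3 E2F matches, 2 of which overlap, and 2 CCAAT matches read on the other strand as ATTGG. The Mcm5 window (chr8:75109336-75109455, plus strand) ends 53 bases before the start site, and its 2 E2F matches overlap as well. The Uhrf1 window (chr17:56304108-56304227, plus strand) lies before the second of 2 RefSeq start sites, ends 85 bases before it and holds 1 E2F match. The Slbp window (chr5:33652575-33652694, minus strand) holds 3 CCAAT matches and no E2F letters. The Top2a window (chr11:99024190-99024309, minus strand) holds 3 CCAAT and 2 CHR matches, and the Cdc20 window (chr4:118437344-118437463, minus strand) 2 CCAAT matches and 1 CHR match. These 3 windows end at the start site. By the RefSeq annotation, the Uhrf1 window lies in the first intron of the transcripts from the first start site, the last 10 bases of the Top2a window lie in the first exon of other Top2a transcripts, which start 10 bases further upstream, and the other 4 windows overlap no gene.

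Against postmitotic DP cells, genes of chromatin and of dividing cells were higher in members. Of 4206 genes tested, 316 (7.51%) were at least 0.5 higher in members and 43 (1.02%) at least 0.5 lower. On the thinned scale 62 were higher and 33 lower. Hmgb2, a chromatin protein of dividing cells, ran from 3.38 to 5.82 in members with a median of 4.94, and from 0.00 to 5.42 with a median of 0.92 in postmitotic DP cells, a difference of 3.67. H2afz differed by 3.25, Stmn1, the microtubule regulator stathmin, by 3.06, Tuba1b by 2.96 and Ptma by 2.74. Srsf3, a splicing factor, had a mean of 2.93 ± 0.61 in members and 0.85 ± 0.86 in postmitotic DP cells. In this comparison 13 of 24 chromatin assembly genes, 6 of 21 licensing genes, 7 of 20 cohesin and condensin genes and 16 of 63 mitosis genes were at least 0.5 higher in members, none was lower, and the list medians were 0.69, 0.34, 0.34 and 0.22, against 0.03 over all genes tested. The members were the deeper group, as given above. Among cells with 1500 to 3000 detected genes, 136 members and 18 postmitotic DP cells, 292 genes were at least 0.5 higher and 85 lower.

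DP stage genes were lower in members than in postmitotic DP cells. Of 38 tested genes of that list, 12 were at least 0.5 lower and none higher, with a median difference of -0.36. Cd8b1, the CD8 beta chain, had a mean of 2.94 ± 0.64 in members and 4.17 ± 0.91 in postmitotic DP cells. Satb1, a chromatin organizer of DP cells, had 2.50 ± 0.82 and 3.41 ± 0.96, and Cd27 0.90 ± 0.74 and 2.11 ± 1.06. Ccr9 differed by -1.28 and Malat1 by -1.34. Tubb2b, a beta tubulin, and Mxd4, a MAX partner that opposes MYC, differed by -1.23 and -0.91. Btg1 and Btg2 were at 1.32 ± 0.90 and 0.75 ± 0.71 in members and at 2.51 ± 1.23 and 1.70 ± 1.03 in postmitotic DP cells. Cd4, Cd8a and Rag1 defined the postmitotic DP cells and are left out of this comparison.

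Transcripts of the Tcra-Tcrd locus differed too. The delta constant gene Trdc lies inside the Tcra locus and is deleted when Tcra rearranges. After thinning, Trdc was found in 30.7% of members (23.4% to 38.7%), 32.7% of G2/M blasts (25.2% to 40.8%) and 11.5% of postmitotic DP cells (6.6% to 18.3%). Trac, the alpha constant gene, was found in 33.3% (25.9% to 41.5%), 36.7% (29% to 44.9%) and 59.2% (50.3% to 67.8%) of the same groups. In the antigen-presenting cells the shares were 3.33% for Trdc (0.0844% to 17.2%) and 26.7% for Trac (12.3% to 45.9%). The Trac share of the members lies within that wide interval, which cannot show whether it is background. Whether a transcript came from a rearranged allele was not analysed here.

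The label of the members as DP cells rests mainly on CD8. The study also defines an immature single-positive stage, dividing cells with Cd8 and without Cd4. Cd8a or Cd8b1 without Cd4 was found in 52 members (34.7%) before thinning and in 107 (71.3%) after it. Whether cells of that stage were among the members was not tested. Cd8b1 was above 0 in all 150 members and Cd8a in 98% of them, and every member had 1 or both. Cd4 was above 0 in 65.3% of members (57.1% to 72.9%), with a median of 0.21 and a highest value of 1.95. After thinning, Cd4 was found in 38 members (25.3%, 18.6% to 33.1%), 39.3% of G2/M blasts (31.5% to 47.6%), 10.6% of biosynthetic cells (6.3% to 16.5%) and 13.3% of the antigen-presenting cells. Thinned shares of Cd8a were 80.7% in members (73.4% to 86.7%), 86% in G2/M blasts, 48.1% in biosynthetic cells and 43.3% in the antigen-presenting cells. Those of Cd8b1 were 85.3%, 92.7%, 68.8% and 66.7%. The antigen-presenting cells thus carried CD8 transcripts often, and the interval of the Cd4 share in members overlaps that of the antigen-presenting cells (3.76% to 30.7%). Both transcripts together were found in 36 of 150 thinned members (24%). In the 38 members with Cd4 after thinning and the 112 without it, the intervals of other stage genes overlapped. Rag1 was found in 31.6% (17.5% to 48.7%) and 30.4% (22% to 39.8%), Rag2 in 5.26% (0.644% to 17.7%) and 14.3% (8.39% to 22.2%), and Cd8a in 73.7% (56.9% to 86.6%) and 83% (74.8% to 89.5%).

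Recombinase transcripts were less frequent in members than in G2/M blasts. Rag1 was found after thinning in 30.7% of members (23.4% to 38.7%) and 59.3% of G2/M blasts (51% to 67.3%), against 20% of the antigen-presenting cells and 0% of mature single-positive cells, which were chosen without it. Its mean was 0.75 ± 0.75 in members and 1.33 ± 0.97 in G2/M blasts. Rag2 was found in 12% of members (7.3% to 18.3%) and 29.3% of G2/M blasts (22.2% to 37.3%). In the antigen-presenting cells the intervals were 7.71% to 38.6% for Rag1 and 3.76% to 30.7% for Rag2 (a share of 13.3%). The shares of both genes in members lie within these wide intervals, which cannot show whether they are background. Dntt, the polymerase that adds bases at junctions, was found in 85.3% of members and 82.7% of G2/M blasts, and its mean was 2.29 ± 0.69 in members and 2.84 ± 0.87 in the 111 G2/M blasts. Ptcra, which encodes the pre-T alpha chain of the receptor that drives beta-selection, was found in 18.7% of members (12.8% to 25.8%), 8.67% of G2/M blasts (4.7% to 14.4%) and 0% of the antigen-presenting cells (0% to 11.6%). Ly6d, a surface marker, was found in 79.3% of members and 83.3% of the antigen-presenting cells, so that it does not tell them apart here. Of the 41 tested DP stage genes, Cd27, Cd8b1 and Cd3g were at least 0.5 lower in members than in G2/M blasts, none was higher, and the median difference was -0.25. Against the 111 G2/M blasts 7 of the 41 were at least 0.5 lower, with Cd8a, Ly6d, Rmnd5a and Endou added, and the median difference was -0.28.

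**Figure D4:**
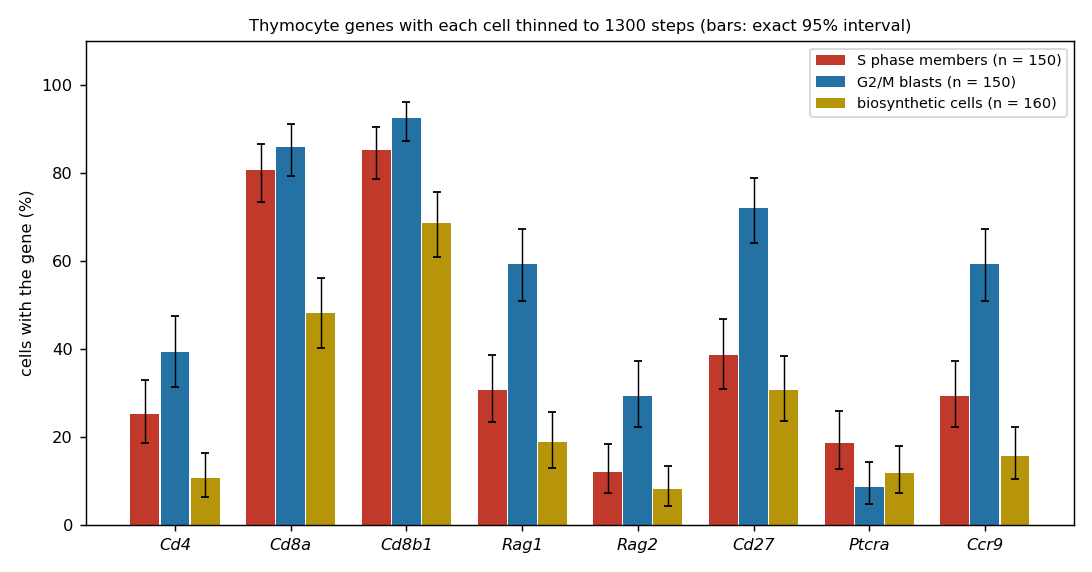
Share of cells in which 8 thymocyte genes were found after each cell was thinned to 1300 steps, in S phase blasts (red, n = 150), G2/M blasts (blue, n = 150) and biosynthetic cells (yellow, n = 160), with exact 95% binomial intervals as bars. Rag1, Rag2 and Ccr9 are found less often in S phase blasts than in G2/M blasts (30.7%, 12% and 29.3% against 59.3%, 29.3% and 59.3%), and Cd8a more often than in biosynthetic cells (80.7% against 48.1%).

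The biosynthetic cells shared part of the S phase program. After thinning, at least 1 of Mcm2 to Mcm7 was found in 80% of them and 85.3% of members. Top2a and Mki67 together were found in 21.3% and 40.7%, and Ccne1 or Ccne2 in 17.5% and 31.3%. The 3 rule genes Rrm2, Pclaf and Hist1h2ap were all above 0 in 134 of the 160 biosynthetic cells (83.8%) before thinning. Of 5705 genes tested, 33 (0.578%) were at least 0.5 higher in members and 124 (2.17%) at least 0.5 lower. On the thinned scale 11 were higher and 11 lower, and among cells with 1500 to 3000 detected genes 72 and 86. The biosynthetic cells were the deeper group, as given above. No licensing gene was past 0.5, and the median differences of the licensing and fork lists were 0.07 and 0.04. Mcm6 had a mean of 0.88 ± 0.72 in members and 0.89 ± 0.65 in biosynthetic cells. Some S phase genes were still higher in members: Slbp by 0.95, Pcna by 0.89, Tyms by 0.86, Fbxo5 by 0.81 and Dek by 0.80. Top2a led the comparison at 2.78 ± 0.70 against 1.52 ± 1.02. Cd8b1, Cd8a and Ccnd3 were higher by 1.02, 1.00 and 0.84, and the CDK inhibitors Cdkn2c and Cdkn2d, with Btg1, were also past 0.5. Cdkn2c had 1.17 ± 0.80 in members and 0.42 ± 0.56 in biosynthetic cells.

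Growth genes were lower in members than in biosynthetic cells, which had been chosen by growth genes. Of 32 genes of Myc and ribosome biogenesis, 14 were at least 0.5 lower in members and none higher, with a median difference of -0.48 against -0.00 over all genes tested. Ncl, nucleolin of the nucleolus, had a mean of 1.83 ± 0.73 in members and 2.77 ± 0.58 in biosynthetic cells. Hspe1, a mitochondrial chaperonin subunit, and Nme1, a nucleoside diphosphate kinase, differed by -1.26 and -1.12. Myc itself was sparse, at 0.10 ± 0.30 in members against 0.56 ± 0.65, and after thinning it was found in 4.67% (1.9% to 9.4%) and 20% (14.1% to 27%). Cdk6, a kinase partner of D cyclins, had 0.25 ± 0.50 and 0.90 ± 0.80. Gzma, a granzyme, had 0.33 ± 0.57 in members and 1.41 ± 1.05 in biosynthetic cells.

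A further 196 cells outside the named groups, described after the data were seen, had a mean of Rrm2, Pclaf and Hist1h2ap no lower than that of the lowest member, at 2.89 to 4.73 with a median of 3.83. Their mean of the G2/M genes ran from 0.31 to 3.41 with a median of 2.23, against 0.00 to 1.96 with a median of 0.47 in members, so the ranges overlap, and 191 of the 196 had 3 or 4 of the G2/M genes above 0. They were outside the members because the rule takes a difference, and their depth was close to that of the members (2421 detected genes in the median). The 2 groups were divided on the rule genes, so their S phase values differ in part by choice, and the genes named here were chosen after their values were seen. Ung, which removes uracil from DNA, had a mean of 0.21 ± 0.46 in members and 0.01 ± 0.06 in these cells, and Ccne2 had 0.56 ± 0.68 and 0.05 ± 0.20. Pcna had 2.60 ± 0.69 and 1.28 ± 0.96, Slbp 2.25 ± 0.65 and 1.22 ± 0.82, and Mcm6 0.88 ± 0.72 and 0.32 ± 0.47. Esco2 (0.79 ± 0.69 and 0.85 ± 0.70) and E2f2 (0.78 ± 0.68 and 0.78 ± 0.64) were at like levels. Hist1h2ae had 1.18 ± 0.90 in members and 1.59 ± 0.84 in these cells, and H2afx 2.05 ± 0.99 and 3.07 ± 0.69. For Rag1 the thinned share was 30.7% in members (23.4% to 38.7%), 35.7% in these cells (29% to 42.9%) and 58.6% in the 111 G2/M blasts with 3 or 4 of the G2/M genes (48.8% to 67.8%). Ccr9 and Cd27 followed that order, with 29.3%, 33.7% and 59.5% for Ccr9 and 38.7%, 41.8% and 70.3% for Cd27. In the antigen-presenting cells the shares were 26.7% for Ccr9 (12.3% to 45.9%) and 36.7% for Cd27 (19.9% to 56.1%). Those of the members lie within these wide intervals, which cannot show whether they are background.

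Against all 1843 other cells of the library together, 172 of 4219 genes (4.08%) were at least 0.5 higher in members and 17 (0.403%) at least 0.5 lower. These counts depend on depth and on the scale. On the thinned scale, where 0.5 is a stricter threshold, 30 were higher and 7 lower. Among cells with 1500 to 3000 detected genes, 87 were higher and 12 lower. Hmgb2, H2afz, Stmn1, Pcna and Top2a led with differences of 2.39, 2.24, 2.11, 2.03 and 2.01. Tmsb10 and Cd52, a surface glycoprotein of mature lymphocytes, were lowest with differences of -1.75 and -1.45. Cd52 had a mean of 0.92 ± 0.98 in members and 2.37 ± 1.79 in all other cells, among which are the mature single-positive cells at 4.54.

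The members also differed among themselves. Across the 150 members, after thinning, the mean of the licensing genes went down as the mean of the mitosis genes went up (Spearman's rho = -0.301), and replication-dependent histones other than Hist1h2ap went up with mitosis genes (rho = 0.339). Hist1h2ap had rho = 0.331 with mitosis genes and -0.245 with licensing genes, but it is a rule gene: a member with more of the G2/M genes needed more of the S phase genes to be chosen, so the choice of members sets part of these values. Myc and ribosome biogenesis genes had rho = -0.418 with mitosis genes and -0.371 with DP stage genes. Detected genes per cell had rho = 0.356 with the Myc list and -0.412 with DP stage genes. All points come from 1 library and share its depth and the rule, so these values are descriptions over n = 150 cells.

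To describe this axis, members were put in the order of their licensing mean minus their mitosis mean and divided into 3 sets of 50, a split chosen after the data were seen. It is a range without a gap, and 12 and 14 members lay within 0.02 of the 2 divisions. Median detected genes were 2391.5 in the set with most licensing, 2434.5 in the middle and 2290 in the set with most mitosis. Genes of neither list differed along it. Ung was found after thinning in 28% (16.2% to 42.5%), 8% (2.22% to 19.2%) and 0% (0% to 7.11%) of these sets. Hells, a chromatin remodeler that acts with Dnmt1, had means of 0.98, 0.88 and 0.43, and Uhrf1 1.32, 1.08 and 0.97. The thinned shares of Uhrf1 were 60%, 32% and 42%, without a steady fall. Hist1h2ae (0.69, 1.15 and 1.70), H2afx (1.49, 2.23 and 2.44) and Tuba1b (2.98, 3.43 and 3.77) ran the other way. Other histone genes did not clearly follow. Hist1h1b had 0.70, 1.02 and 0.84, and Hist1h1e had 0.34, 0.45 and 0.57 but a thinned share of 20% in each set. Pcna and Slbp were nearly level, with means of 2.69, 2.62 and 2.49 for Pcna and 2.22, 2.28 and 2.24 for Slbp. Ptcra was found in 18%, 30% and 8% of the sets and Rag1 in 32%, 28% and 32%. Of the rule genes, Ube2c had means of 0.41, 1.03 and 1.95, Hist1h2ap 5.22 ± 1.18, 6.08 ± 0.75 and 6.50 ± 0.65, and Rrm2 2.61, 2.74 and 2.79. These genes stand on opposite sides of the rule score, so that the rule itself sets part of their joint rise, and nothing is read from it.

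**Figure D5:**
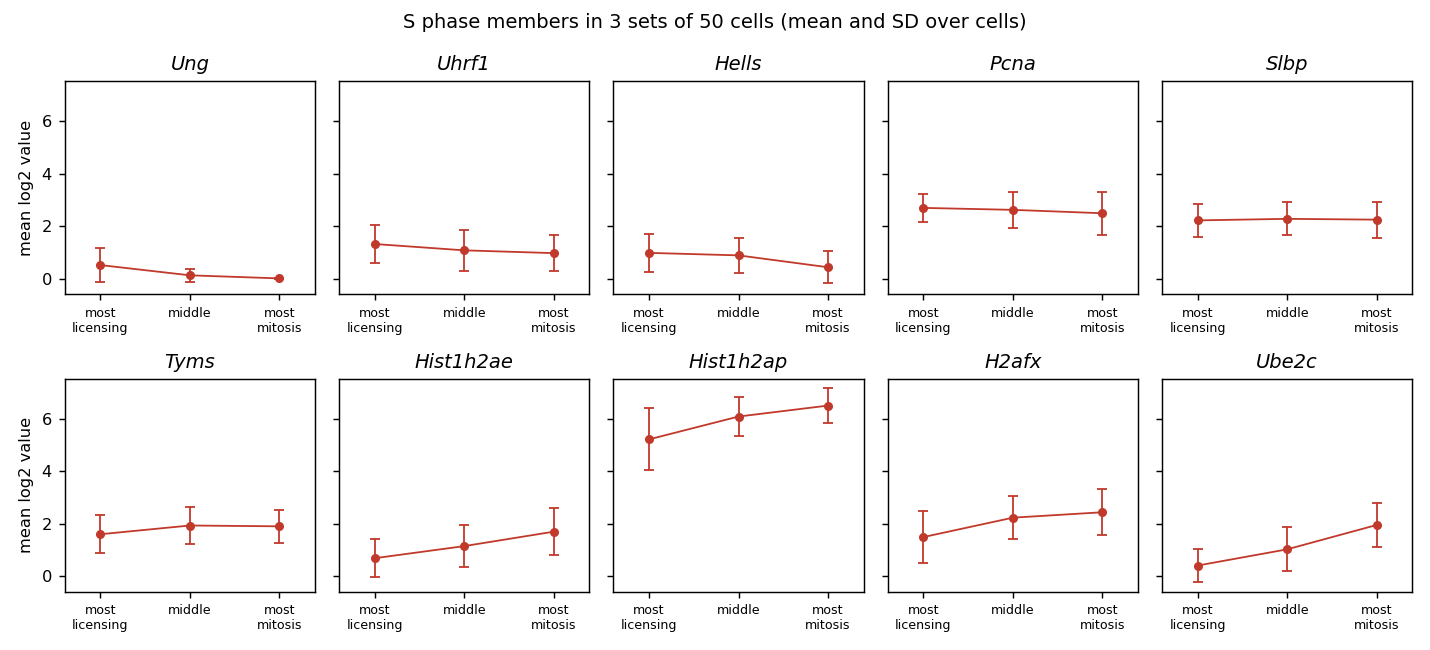
Mean deposited log2 value and SD over cells of 10 genes in the S phase blasts, divided into 3 sets of 50 by licensing minus mitosis genes. Ung and Hells go down from the set with most licensing to the set with most mitosis (0.51 to 0.01 and 0.98 to 0.43), Hist1h2ae and H2afx go up, and Pcna and Slbp stay nearly level. Hist1h2ap and Ube2c also go up, but both are rule genes and the choice of members sets part of their rise.

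Members were also close to each other on genes that the rule did not use. On 688 variable genes without the 12 rule genes, 69.7% of the 10 nearest neighbors of a member were members, who make up 7.53% of all cells, and for 114 of the 150 at least 50% were. Another 21.9% of neighbors were cells outside the named groups, 8.13% were biosynthetic cells and 0.333% G2/M blasts. Closeness of this kind was not particular to the members: biosynthetic cells had 69.9% of their neighbors in their own group, and G2/M blasts 45.9%. No neighbor of a member was a postmitotic DP cell, a mature single-positive cell or 1 of the 30 antigen-presenting cells. When the genes of the replication and cell cycle control lists were also left out, 584 variable genes remained and 59.6% of neighbors were members. Cell cycle genes outside these lists were not left out. These genes come from the same cells as the rule genes, so the shares are a description of likeness and not a test.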

How the data were processed

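Total thymocytes were measured by droplet-based scRNA-seq in 1 library (3′ V2 chemistry). The authors aligned reads with Cell Ranger 1.3.1 to GRCm38.p5, filtered cells by detected genes and mitochondrial share and genes by cells, applied quantile normalization and deposited log2 values of 8846 genes in 1993 cells, with zeros at 0. The submitters' processing notes also name hg38. The table still held 7 cells with over 4500 detected genes and 13 mitochondrial genes. Counts were not used, and the scATAC-seq cells, which are other cells, were not used here.

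The members and gene lists were chosen with earlier results of these data known. Groups, differences of means and shares were computed with Python 3.11.15, numpy 2.4.6, pandas 2.3.3 and scipy 1.17.1, and neighbors with scikit-learn 1.9.0 in 20 principal components. Genes above 0 in at least 20% of either group were compared, and 0.5 log2 was the threshold. The genes named were the 15 most higher and 10 most lower per comparison and examples of 27 fixed lists. Steps are lower bounds of counts for high genes. Doublets were not called. The scripts were tested on simulated data. Sequences are from RefSeq. Some genes of the lists are not reported here by name.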

Additional observations from a re-analysis of the deposited data

How the results depend on the processing

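No paired analysis was possible because there is 1 library, and for the same reason no replicate could be left out. Of 150 members, 103 were kept when the rule used thinned cells, 125 when the 160 cells were not left out first, 132 with z scores and 150 without cells over 4500 detected genes. All 425 differences of named genes under alternatives kept their direction, but 34 of them, all on the thinned scale, moved by more than 1 SD over cells. Of 50 counts of genes past 0.5, 39 stayed within 1.5 times. Of 546 list medians 10 moved by more than the SD over the genes of the list, for innate-like lymphocyte, pre-T cell receptor, thymic epithelial and mitochondrial genes. These 425 cover the genes with the largest differences. Over all genes past 0.5, Hmgb2 reversed against G2/M blasts in the depth window (-0.25) and against the 111 cells (-0.19). Hmgn2 fell to -0.00 in the depth window, and on the thinned scale Sec61g and Psmb8 reversed against postmitotic DP cells (-0.01 and -0.06) and Eef1a1 against biosynthetic cells (0.03). On the thinned scale, where 0.5 is a stricter threshold, counts higher and lower in members were 25 and 15 against G2/M blasts. They were 62 and 33 against postmitotic DP cells, 11 and 11 against biosynthetic cells, and 30 and 7 against all other cells. With cells of 1500 to 3000 detected genes only, 59 were lower against G2/M blasts, 85 lower against postmitotic DP cells, 72 higher against biosynthetic cells and 87 higher against all other cells, so depth limits these counts. The share of members among neighbors was 66.6% with 30 neighbors and 59.6% without the genes of the replication and cycle control lists. With the 111 G2/M blasts that had 3 or 4 of the G2/M genes, an alternative chosen after seeing the data, both counts stayed within 1.5 times.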
